A study of Arabidopsis thaliana with 12 samples.

Results

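A set of 150 Affymetrix probe sets gave lower signal in Arabidopsis thaliana seedlings carrying 35S:LOB-GR than in Columbia (Col) wild type, with or without the steroid that switches the fusion protein on. They were picked from 22746 probe sets by a rule on the measured values. The rule asked for a 35S:LOB-GR minus Col difference of -0.8 or lower on the log2 scale under both treatments. It also asked that no 35S:LOB-GR array reached a Col array of the same treatment, and that dexamethasone (DEX) moved the 35S:LOB-GR mean by less than 0.5. A short list of genes was set aside by name. It removed 4 probe sets that otherwise met the rule, those of GI, AT3G15450, AT1G56300 and IAA29. A difference of -0.8 or lower under both treatments without such overlap was found for 0.976% of all probe sets, and 5.8% had no overlap whatever the size of the difference. The same rule with the signs turned found 79 probe sets higher in 35S:LOB-GR. Of the 150 members, 52 stand for 1 gene each, 1 for several genes and 97 carry no gene name here, so 34.7% have 1 gene against 59.4% of all probe sets.

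LATERAL ORGAN BOUNDARIES (LOB) is a plant-specific transcription factor of the LBD family, transcribed where young organs separate from the meristem. In LOB-GR it is joined to the part of the rat glucocorticoid receptor that binds steroid. Such fusions stay in the cytoplasm until a ligand such as DEX lets them enter the nucleus, and the CaMV 35S promoter makes the fusion in nearly all plant cells. A comparison of DEX with mock in such a line shows what follows activation, while a comparison of the line with wild type under mock shows how the plants differ before it. The genes described here differ in the latter way and moved little in the former.

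Both genotypes were in the Col-0 background and were grown on MS plates for 9 days. Whole seedlings were then covered with liquid MS medium, with 5 µM DEX or without it (mock), and shaken for 4 h. This gave 4 groups of 3 arrays, Col mock, Col DEX, 35S:LOB-GR mock and 35S:LOB-GR DEX, each array made from total RNA. The 3 arrays of a group are labelled as biological replicates and nothing says that they came from separate sowings, so p-values measure the spread between these samples. The sources used here do not give how many independent transformants the transgenic seed came from, and the transgene and any other difference between the seed stocks cannot be told apart. In RNA of whole seedlings, fewer cells of a type and less RNA per cell cannot be told apart either.

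The values are log2 signals made with RMA, which corrects background, brings all arrays to 1 distribution and sums up the probes of a set. A difference of 1 is thus a 2-fold change in signal. Values ran from 2.71 to 14.14 with array medians of 5.88 to 5.97, and arrays of a group correlated at 0.9922 or higher across probe sets. The ± beside a difference is the standard error (SE) from a limma fit over all 12 arrays. A probe set was called when its adjusted p was under 0.05 after Benjamini-Hochberg correction over all 22746 probe sets. Tissue markers were present but few could be named. A listed gene is counted as measured here when a probe set stands for it alone. Other listed genes may be on the array among the probe sets without a single gene name. Of 5 green shoot markers 2 were measured and they differed: LHCB4.2 is a member of the set, with a difference of -1.22 under mock and -1.35 under DEX, and RCA, the Rubisco activase gene, was not called. RCA stood at 13.82 ± 0.05 in Col mock and 13.71 ± 0.08 in 35S:LOB-GR mock (SD, n = 3). The root gene PYK10 stood at 12.38 ± 0.10 and 12.53 ± 0.12 in the same groups. Of 3 measured root markers none was called between genotypes under mock, and PYK10 was higher in 35S:LOB-GR under DEX by 0.47 (adjusted p = 0.00234, limma). No stomatal lineage marker of the 3 measured was called in either genotype comparison. Some markers were dim, so a fall would be hard to see in them. In Col mock the stomatal marker MUTE stood at 4.18 and the root markers EXPA7 and EXPA18 at 5.19 and 5.24, where the median of all probe sets was 5.94.

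The members' genotype difference ran from -5.25 to -0.80 under mock, with a median of -1.16, where the median of all probe sets was 0.00. Under DEX it ran from -5.31 to -0.82, with a median of -1.28 against 0.02. All 150 were called lower under mock and under DEX by limma, as were 5.1% of all probe sets under mock, 9.74% under DEX and 3.32% in both. The shares called higher were 5.76% and 11.7%. The members were chosen by these contrasts, so nothing is read from that count. Of the 150, 97 were at least 2-fold lower under both treatments, including 34 of the 52 named genes. At least 4-fold lower under both were 14, of which AT5G19430 has a gene name. The transgenic arrays mostly lay below the Col arrays of the other treatment too: over both treatments together, the genotypes did not overlap in 149 of 150 members and in all 52 named ones. The rule had already asked for no overlap within a treatment, and the share of all probe sets was not counted, so nothing is read from that count either. For 125 members the differences under mock and under DEX were within 0.5 of each other.

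**Figure D1:**
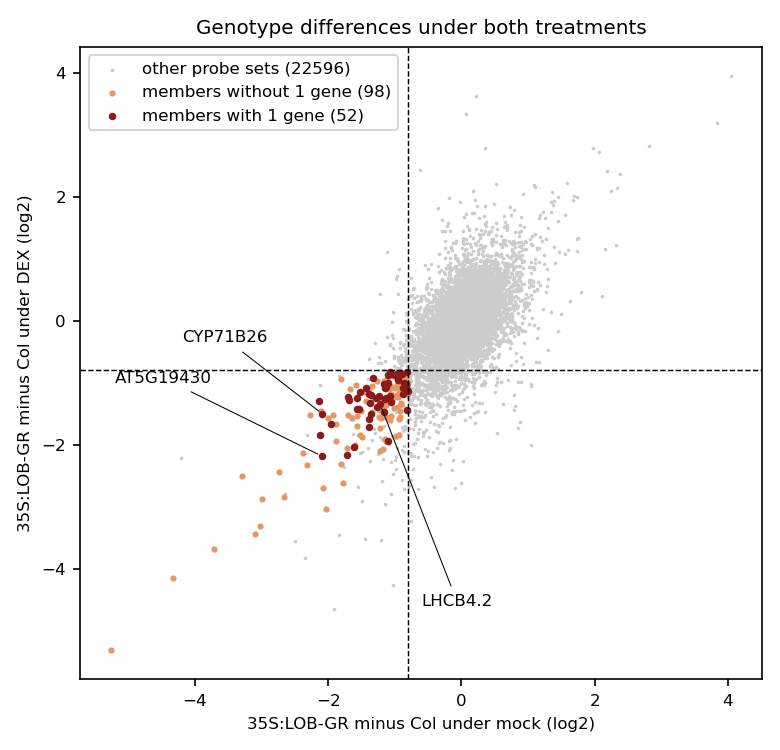
Genotype difference of each probe set under mock (x axis) and under DEX (y axis), both as 35S:LOB-GR minus Col in log2 units. Grey points are the 22596 other probe sets, orange points the 98 members without a single gene name and dark red points the 52 named members; dashed lines mark the limit of -0.8 in the rule, which placed the members in the lower left corner.

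The members were mostly well-expressed transcripts in wild type. Their Col mock level had a median of 8.09, where that of all probe sets was 5.94, and 137 of 150 (91.3%) lay above the latter. The rule asked for Col arrays clearly above the 35S:LOB-GR arrays, so probe sets near the dim end in Col could hardly enter. The choice of members thus favoured a high Col level, and nothing is read from that share. In 35S:LOB-GR mock the members' median was 6.55, and 95 still lay above the median of all. A 35S:LOB-GR mean under 4.5, near the dim end of the scale, was found for 16 members, among them AT5G19430 and AT5G44050 of the named ones. At such levels RMA signals compress differences. No filter on dim probe sets was used to pick the members, and 149 of them exceed the 25th percentile of probe set means, 4.12.

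Plastid proteins made up 4 of the named members. LHCB4.2 (AT3G08940) encodes CP29, a chlorophyll-binding antenna protein that links the light-harvesting trimers to photosystem II. Its signal was 13.06, 13.05 and 12.92 in Col mock and 13.09, 13.06 and 13.06 in Col DEX. In 35S:LOB-GR it was 11.47, 11.93 and 11.98 under mock and 11.70, 11.68 and 11.79 under DEX. All 6 transgenic arrays lay at least 0.94 below the lowest wild-type array, and the Col DEX arrays were nearly identical. The difference was -1.22 ± 0.11 under mock and -1.35 ± 0.11 under DEX (SE), or 2.32-fold and 2.54-fold lower. LHCB4.2 was one of the brightest members, at percentile 99.7 of all probe sets in Col mock and 98.7 in 35S:LOB-GR mock.

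AT2G42220 belongs to the rhodanese-like sulfurtransferases of the plastid. It measured 11.39, 11.31 and 11.44 in Col mock and 11.18, 11.41 and 11.27 in Col DEX. The transgenic values were 10.24, 10.16 and 10.25 under mock and 9.46, 10.03 and 9.94 under DEX. The groups did not overlap, and DEX replicate 1 was the lowest of the transgenic arrays. The difference was -1.16 ± 0.12 under mock and -1.48 ± 0.12 under DEX. AT5G19940, a fibrillin of the plastid-lipid-associated protein family, went from 11.89 ± 0.07 to 10.82 ± 0.12 under mock and from 11.95 ± 0.02 to 10.74 ± 0.09 under DEX (Col to 35S:LOB-GR, SD, n = 3). The dimmer AT1G02660, a plastid lipase that acts on membrane galactolipids, was at 6.30 ± 0.11 in Col mock and 5.01 ± 0.15 in 35S:LOB-GR mock, with differences of -1.29 and -1.24 under mock and DEX.

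Of the other CP29 genes, LHCB4.1 differed in the same direction as LHCB4.2 but by less, and LHCB4.3 in the opposite direction. By limma LHCB4.1 was called lower under mock and DEX (adjusted p = 0.0224 and 0.000823) and LHCB4.3 higher (adjusted p = 0.0123 and 0.000182). LHCB4.1, the main isoform, was at 13.60 ± 0.03 in Col mock and 13.30 ± 0.09 in 35S:LOB-GR mock, a difference of -0.30, and its difference under DEX was -0.44. LHCB4.3, an isoform of lower level, was at 6.71 ± 0.24 and 7.31 ± 0.26, a difference of +0.60, and +0.95 under DEX. RCA, the other gene of the photosynthesis list with a named probe set (2 of 9 genes had one), differed by -0.11 and -0.18 and was not called. The isoforms are similar in sequence, and how far their probe sets share transcripts was not tested.

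Small defence proteins were 3 members. AT1G66100 encodes a thionin, a small cysteine-rich peptide toxic to microbes. In Col it gave 7.35, 6.96 and 6.77 under mock and 6.72, 6.39 and 6.85 under DEX. In 35S:LOB-GR it gave 4.83, 4.75 and 5.15 under mock and 5.15, 4.72 and 4.58 under DEX. The wild-type arrays spread over about 1 log2 unit, yet the lowest of them stood 1.24 above the highest transgenic one. The difference was -2.12 ± 0.17 under mock, 4.34-fold, and -1.84 ± 0.17 under DEX, 3.57-fold.

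THI2.2 (AT5G36910) is a second thionin. Its arrays read 9.17, 8.84 and 9.03 in Col mock, 8.84, 8.71 and 8.99 in Col DEX, 7.45, 7.09 and 7.44 in 35S:LOB-GR mock, and 8.17, 7.40 and 7.13 in 35S:LOB-GR DEX. Replicate 1 of 35S:LOB-GR DEX was the highest transgenic array, 0.54 below the lowest Col DEX array. The difference was -1.69 ± 0.20 under mock and -1.28 ± 0.20 under DEX. AT1G20030, a thaumatin-like protein of the PR-5 family, differed by -1.15 and -1.09.

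Of the list of thionin, defensin and pathogenesis-related genes, 10 of 15 had a named probe set. Under mock 3 were called lower and 7 were not called, with a median difference of -0.03. Under DEX 1 was called higher, 4 lower and 5 not, with a median of -0.11. The 2 thionin members are among those called lower under both treatments and had been chosen for it. THI2.1, the jasmonate-responsive thionin, was near the dim end at 4.03 ± 0.25 in Col mock and 4.01 ± 0.04 in 35S:LOB-GR mock, with differences of -0.02 and -0.07. The defensin-like genes LCR68 and LCR69 had their differences under DEX, -0.88 and -0.73, and not under mock, where they were 0.07 and -0.04.

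The protein phosphatases AT3G16800 and AT3G05640 belong to clade E of the PP2C family, known as growth regulators (EGR3 and EGR1) that restrain growth in dry conditions. AT3G16800 measured 7.01, 7.15 and 7.05 in Col mock and 7.09, 7.17 and 6.78 in Col DEX. It measured 5.10, 5.61 and 5.35 in 35S:LOB-GR mock and 5.13, 4.76 and 4.68 in 35S:LOB-GR DEX. Its genotypes were at least 1.40 apart within a treatment, and the transgenic DEX arrays reached lower than the mock ones, with 1 DEX array among the mock values. The difference was -1.72 ± 0.14 under mock and -2.16 ± 0.14 under DEX, 3.29-fold and 4.46-fold. Its DEX response in 35S:LOB-GR, -0.50 after rounding, is the most negative of the named members and lies just inside the limit of the rule.

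AT3G05640 was lower by 0.82 under mock and 1.11 under DEX: it went from 6.09 ± 0.01 to 5.26 ± 0.22 and from 6.28 ± 0.17 to 5.17 ± 0.11. The third gene of that clade, EGR2 (AT5G27930), was not a member and had another pattern. It was at 6.33 ± 0.03 in Col mock, 6.27 ± 0.12 in Col DEX, 6.10 ± 0.02 in 35S:LOB-GR mock and 7.13 ± 0.05 in 35S:LOB-GR DEX. Its difference was -0.23 under mock and +0.86 under DEX. Its 3 transgenic DEX arrays were the highest of the 12, whereas the lowest arrays of AT3G16800 were in that group.

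Proteins that tag or fold others included 3 RING finger proteins, a type that often acts as a ubiquitin ligase. AT5G19430 had the lowest mean difference of all named members. Its arrays were 5.97, 6.15 and 5.87 in Col mock, 5.94, 6.09 and 6.07 in Col DEX, 3.91, 3.77 and 4.02 in 35S:LOB-GR mock, and 3.85, 3.97 and 3.74 in 35S:LOB-GR DEX. The 6 arrays of each genotype lay within 0.3 of one another, and the genotypes were 1.85 apart at their closest. The difference was -2.10 ± 0.10 under mock and -2.18 ± 0.10 under DEX, 4.28-fold and 4.53-fold, and the transgenic level was at percentile 19.8 of all probe sets.

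AT1G26800, the next RING finger gene, behaved less evenly. It read 7.27, 7.63 and 7.56 in Col mock and 7.89, 8.10 and 7.84 in Col DEX. In 35S:LOB-GR it read 6.32, 6.09 and 6.74 under mock and 6.24, 6.01 and 5.77 under DEX. Every Col DEX array was above every Col mock array, and the means moved by 0.46 in Col and -0.38 in 35S:LOB-GR. The gap between genotypes was 0.52 under mock and 1.60 under DEX. The difference was -1.1 ± 0.16 and -1.93 ± 0.16. AT1G14200, the last of the group, differed by -0.99 and -0.88.

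AT1G23390 encodes a Kelch-repeat F-box protein that marks chalcone synthase, the entry enzyme of flavonoid synthesis, for breakdown. Its Col values were 10.17, 10.50 and 10.24 under mock and 10.01, 10.21 and 10.18 under DEX. Its 35S:LOB-GR values were 8.68, 8.09 and 9.05 under mock and 9.22, 8.82 and 8.66 under DEX. The transgenic mock arrays spread over nearly 1 log2 unit, with replicate 2 the lowest, and no array crossed between genotypes. The difference was -1.70 ± 0.19 under mock and -1.24 ± 0.19 under DEX. DFR, an enzyme further down the flavonoid pathway, differed by 0.04 and 0.24 and was not called. It was the only one of 10 listed genes of that pathway with a named probe set.

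AT3G14200 carries a DnaJ domain, the mark of Hsp70 co-chaperones. Its values were 8.55, 8.57 and 8.88 in Col mock and 8.70, 8.70 and 8.55 in Col DEX. They were 6.97, 7.56 and 7.31 in 35S:LOB-GR mock and 6.80, 7.29 and 7.11 in 35S:LOB-GR DEX. In the transgenic groups replicate 1 was the lowest array under both treatments, and all 6 stayed below Col. The difference was -1.39 ± 0.15 and -1.58 ± 0.15.

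**Figure D2:**
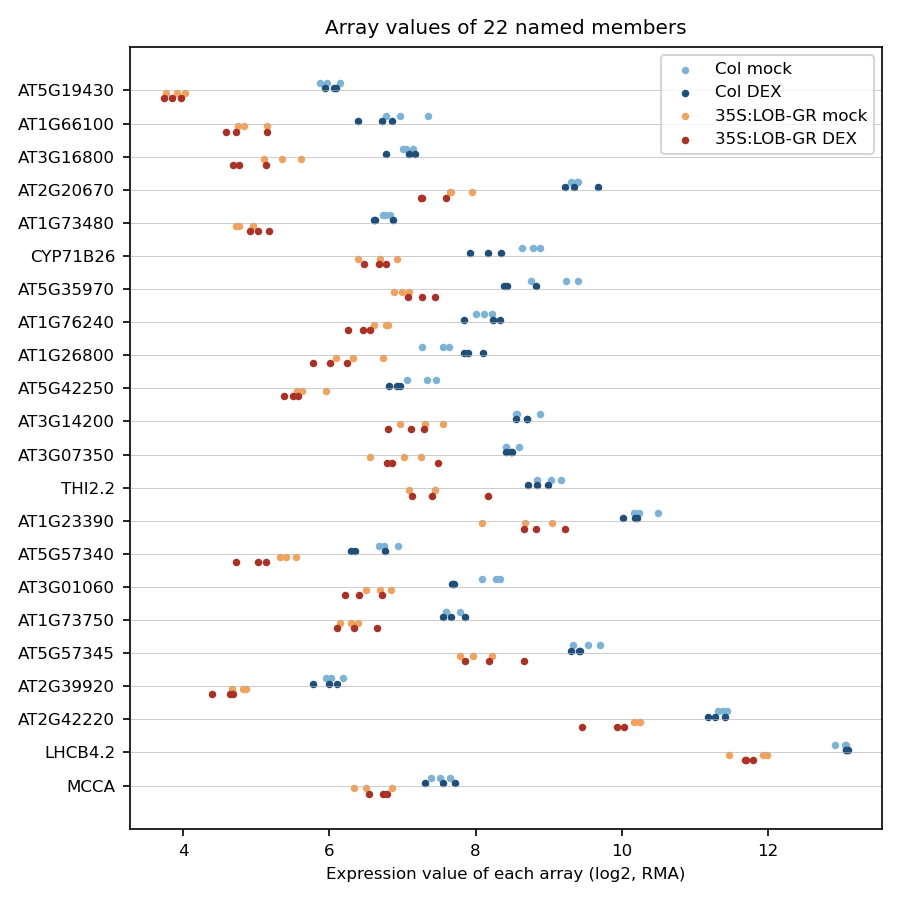
Log2 RMA signal (x axis) of each of the 12 arrays for the 20 named members with the lowest mean genotype difference and for LHCB4.2 and MCCA (rows); each point is 1 array, blue for Col and orange to red for 35S:LOB-GR. In every row all 6 transgenic points lie left of all 6 wild-type points, and gaps are wide for AT5G19430 and narrow for MCCA.

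The enzymes formed the largest group with a stated role, 9 genes. CYP71B26 (AT3G26290), a cytochrome P450 monooxygenase, measured 8.79, 8.88 and 8.63 in Col mock and 8.35, 8.17 and 7.92 in Col DEX. It measured 6.93, 6.69 and 6.39 in 35S:LOB-GR mock and 6.48, 6.77 and 6.68 in 35S:LOB-GR DEX. The wild-type DEX arrays all lay below the wild-type mock arrays, while the transgenic DEX arrays lay within the range of the transgenic mock arrays. The difference was -2.09 ± 0.14 under mock, 4.27-fold, and -1.50 ± 0.14 under DEX, 2.84-fold. Of 19 measured CYP71B genes, 1 was called lower in 35S:LOB-GR under both treatments, beside 3.32% of all probe sets. That gene was CYP71B26, which had been chosen for it. Called higher under mock or DEX were 3 of the 19. The next lowest mean difference was that of CYP71B37, with -0.32 under mock and -0.60 under DEX. CYP71B34, whose locus number follows closely on that of CYP71B26, differed by -0.13 and +0.17.

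AT1G73480 is an alpha/beta hydrolase related to monoacylglycerol lipases. It read 6.73, 6.83 and 6.76 in Col mock and 6.61, 6.62 and 6.87 in Col DEX. It read 4.73, 4.76 and 4.95 in 35S:LOB-GR mock and 5.17, 5.03 and 4.92 in 35S:LOB-GR DEX. Genotypes were at least 1.44 apart. The difference was -1.96 ± 0.10 under mock and -1.66 ± 0.10 under DEX. A further member of the hydrolase fold, AT1G73750, gave 7.59, 7.78 and 7.60 in Col mock, 7.56, 7.67 and 7.85 in Col DEX, 6.39, 6.15 and 6.29 in 35S:LOB-GR mock, and 6.65, 6.34 and 6.10 in 35S:LOB-GR DEX. It held nearly the same difference under both treatments, -1.38 ± 0.13 and -1.33 ± 0.13.

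AT5G42250, of the zinc-binding alcohol dehydrogenase family, had values of 7.06, 7.46 and 7.33 in Col mock and 6.81, 6.97 and 6.92 in Col DEX. In 35S:LOB-GR they were 5.95, 5.56 and 5.63 under mock and 5.50, 5.57 and 5.38 under DEX. The Col DEX arrays were all below Col mock, and the genotypes were 1.11 and 1.24 apart under mock and DEX. The difference was -1.57 ± 0.12 and -1.42 ± 0.12. AT2G39920, an acid phosphatase of the haloacid dehalogenase superfamily, read 5.95, 6.18 and 6.02 in Col mock, 6.11, 5.78 and 5.99 in Col DEX, 4.82, 4.86 and 4.67 in 35S:LOB-GR mock, and 4.39, 4.68 and 4.64 in 35S:LOB-GR DEX. Its groups were 1.09 and 1.1 apart, with differences of -1.27 ± 0.11 and -1.39 ± 0.11.

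MCCA (AT1G03090) encodes the biotin-carrying subunit of methylcrotonyl-CoA carboxylase, which breaks down leucine in mitochondria, a route used when sugar is short. It gave 7.52, 7.65 and 7.39 in Col mock and 7.31, 7.55 and 7.72 in Col DEX. It gave 6.50, 6.34 and 6.85 in 35S:LOB-GR mock and 6.54, 6.73 and 6.79 in 35S:LOB-GR DEX. The genotypes were 0.54 and 0.53 apart, among the narrower gaps of the named members, whose median gap was 0.73. The difference was -0.96 ± 0.13 and -0.84 ± 0.13. Of the list of genes induced by sugar shortage or darkness, 5 of 19 had a named probe set. Under mock 4 were called lower and 1 was not, with a median difference of -0.68, and under DEX all 5 were called lower, with a median of -0.84.

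Those 5 include AT3G15450, which met the value rule and was set aside by name, and MCCA, so their direction was partly fixed by the choice of members. The other 3 are not members. MCCB, the partner subunit of MCCA, was at 8.64 ± 0.08 in Col mock and 8.18 ± 0.16 in 35S:LOB-GR mock, and its differences were -0.46 and -0.29 (limma adjusted p = 0.00486 and 0.0384). AKINBETA1, a regulatory subunit of the SnRK1 energy-sensing kinase, differed by -0.68 and -0.98. IVD, the isovaleryl-CoA dehydrogenase that acts just before the carboxylase, differed by -0.28 under mock, where it was not called, and by -0.42 under DEX.

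For the other 3 enzymes the means are given. AT2G44500, of the O-fucosyltransferase family, differed by -0.88 and -1.19, and AT1G70820, of the phosphoglucomutase family, by -0.89 and -0.85. AT4G15700 is a CC-type glutaredoxin, a small thiol protein found in land plants, from a cluster of closely similar genes on chromosome 4. It was at 6.55 ± 0.21 in Col mock, 6.23 ± 0.06 in Col DEX, 5.40 ± 0.24 in 35S:LOB-GR mock and 4.97 ± 0.40 in 35S:LOB-GR DEX. Its difference was -1.15 under mock and -1.26 under DEX.

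The other measured genes of that cluster had lower values with DEX in 35S:LOB-GR, beyond the limit of the rule, and are not members. AT4G15660 differed by -0.86 under mock and -2.02 under DEX, AT4G15680 by -0.69 and -1.98, and AT4G15690 by -0.84 and -1.71. Their DEX responses in 35S:LOB-GR were -1.13, -1.31 and -0.87, against -0.43 for AT4G15700, and in Col they were between -0.03 and 0.02. Probes for such similar genes may pick up one another's transcripts, so the assignment of each value to 1 gene is uncertain.

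**Figure D3:**
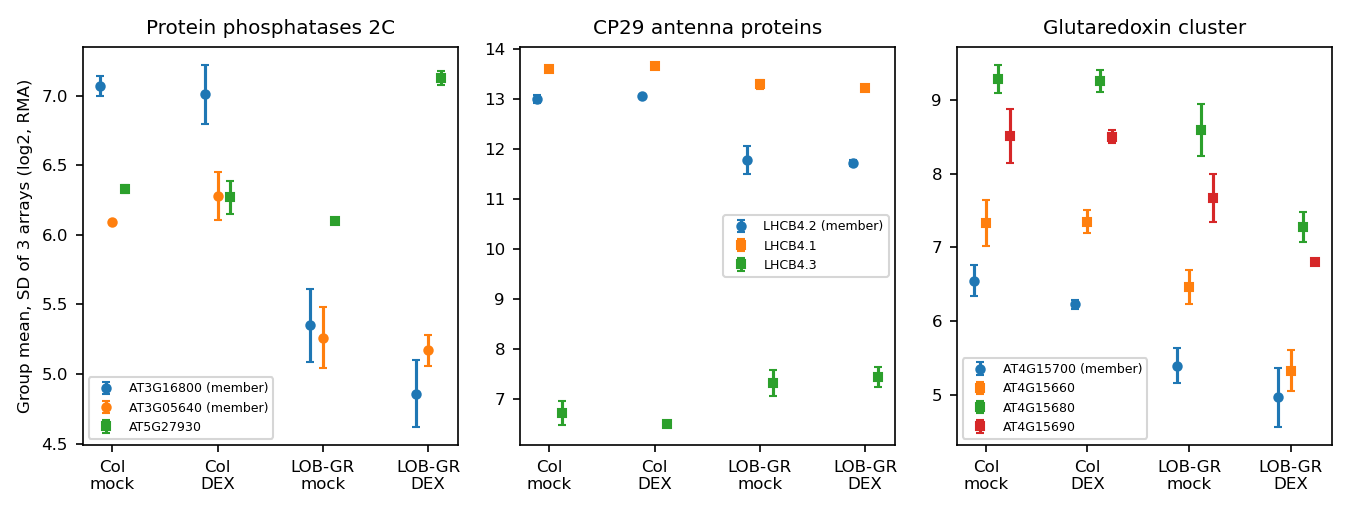
Mean log2 RMA signal (y axis, a separate scale per panel) in the 4 groups of 3 arrays, with bars of 1 SD, for members (circles) and close relatives that are not members (squares). Both PP2C members are lower in LOB-GR groups, whereas AT5G27930 is highest in LOB-GR DEX at 7.13; LHCB4.2 drops by 1.22 under mock while LHCB4.3 is higher in LOB-GR; and 3 glutaredoxins drop again with DEX.

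Membrane and signalling proteins were 6 members. AT1G66760 and AT5G44050 are MATE efflux carriers, which export small organic compounds. AT1G66760 was at 6.95 ± 0.32 in Col mock and 6.13 ± 0.28 in 35S:LOB-GR mock, and at 7.31 ± 0.27 and 5.87 ± 0.11 under DEX. Its smallest gap between genotypes, 0.31, is the smallest of the named members. AT5G44050 was dim throughout, from 4.87 ± 0.27 in Col mock to 3.71 ± 0.14 in 35S:LOB-GR mock. AT5G02180, of the amino acid transporter family, differed by -1.14 and -1.07.

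AT5G06970 is PATROL1, a protein that helps deliver the proton pump to the plasma membrane of guard cells and so affects stomatal opening. It was at 8.31 ± 0.15 and 7.23 ± 0.04 under mock and at 8.19 ± 0.13 and 7.34 ± 0.12 under DEX, in Col and in 35S:LOB-GR. AT3G61260 is a remorin, a scaffold protein of membrane nanodomains, and its differences were -1.07 and -0.83. AT1G61590, of a receptor-like cytoplasmic kinase family, had -0.82 and -0.83. Of 3 other remorins measured, AT2G45820 differed by -0.46 and 0.01, AT5G23750 by -0.41 and -0.48, and the dim AT3G48940 by 0.07 and -0.14.

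Proteins with a domain of unknown function gave 4 members in 2 plant families. AT2G20670 and AT3G07350 carry DUF506. AT2G20670 measured 9.40, 9.31 and 9.38 in Col mock and 9.22, 9.34 and 9.67 in Col DEX, and 7.67, 7.65 and 7.95 in 35S:LOB-GR mock and 7.59, 7.27 and 7.25 in 35S:LOB-GR DEX. Its genotypes stood at least 1.35 apart within a treatment, and its difference was -1.61 ± 0.13 and -2.04 ± 0.13, 3.05-fold and 4.11-fold. AT3G07350 measured 8.60, 8.42 and 8.41 in Col mock, 8.50, 8.49 and 8.42 in Col DEX, 7.02, 6.55 and 7.26 in 35S:LOB-GR mock, and 7.48, 6.79 and 6.85 in 35S:LOB-GR DEX. The Col arrays of the latter spread by 0.2 and the transgenic ones by nearly 1, with differences of -1.54 ± 0.18 and -1.43 ± 0.18.

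The 4 other measured DUF506 genes of 9 did not move together. AT2G38820 differed by -0.85 under mock and -0.44 under DEX, AT2G39650 was higher by 0.54 and 0.58, AT3G22970 differed by -0.45 and 0.15, and AT1G12030 by 0.14 and -0.08. The DUF584 genes AT5G60680 and AT5G03230, of a family related to the senescence protein S40, differed by -1.38 and -1.19 and by -0.83 and -1.03. The 7 other measured genes of that family of 9 had a median difference of -0.03 under mock and -0.10 under DEX, but went both ways. AT4G04630 was called lower under both treatments (-0.53 and -0.72) and AT1G11700 higher (0.73 and 0.54). Under mock 2 were called higher and 1 lower, and under DEX 2 higher and 2 lower. The relatives were chosen by family after the members were known, and no family was tested as a set.

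Members of other kinds included AT5G35970, a helicase-like protein. It read 9.40, 9.24 and 8.76 in Col mock, 8.39, 8.43 and 8.82 in Col DEX, 7.0, 7.09 and 6.88 in 35S:LOB-GR mock, and 7.07, 7.27 and 7.44 in 35S:LOB-GR DEX. In Col, mock replicate 3 fell among the DEX arrays, and in 35S:LOB-GR DEX replicate 1 fell among the mock arrays. The difference was -2.14 ± 0.15 under mock, the lowest of the named members there, and -1.29 ± 0.15 under DEX. AT3G10020, a hypoxia-responsive protein, differed by -1.44 and -1.08. AT4G14270, with a motif that binds poly(A)-binding protein, differed by -1.24 and -1.21 and was among the brighter members at 10.34 ± 0.16 in Col mock.

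The glycine-rich protein gene AT2G05540, at 11.41 ± 0.13 in Col mock, differed by -1.06 and -1.31. AT2G23840, an HNH endonuclease domain protein, differed by -1.1 and -1.01, and AT3G23080, a lipid-binding START-like protein, by -0.95 and -0.90. AT4G16870 is annotated as a copia-like retrotransposon, not a protein-coding gene of known use. It was at 6.46 ± 0.03, 6.08 ± 0.23, 5.51 ± 0.06 and 5.13 ± 0.10 in Col mock, Col DEX, 35S:LOB-GR mock and 35S:LOB-GR DEX, so that its genotype difference was -0.95 under both treatments and its DEX response -0.38 in both genotypes.

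**Figure D4:**
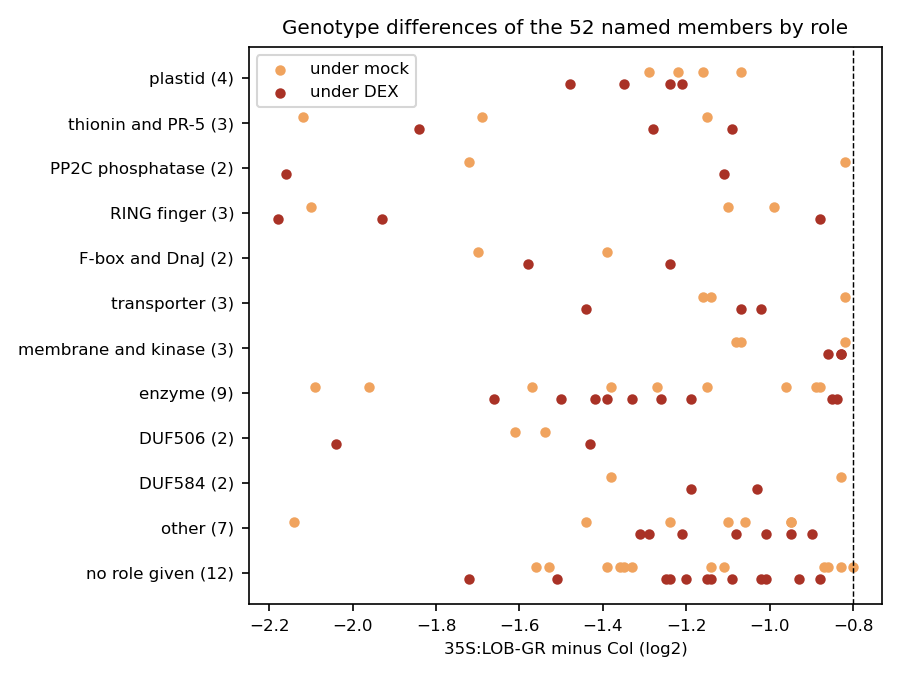
Genotype difference, 35S:LOB-GR minus Col in log2 units (x axis), of each of the 52 named members under mock (orange) and under DEX (red), grouped by annotated role (rows, with the number of genes). The dashed line is the limit of -0.8 in the rule; the enzyme row spans -2.09 to -0.88 under mock, while the 4 plastid genes stay between -1.29 and -1.07.

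For 12 named members no role is given here. AT1G76240 had the lowest mean difference of these, and its arrays were 8.01, 8.22 and 8.11 in Col mock, 7.84, 8.34 and 8.24 in Col DEX, 6.61, 6.77 and 6.80 in 35S:LOB-GR mock, and 6.56, 6.46 and 6.25 in 35S:LOB-GR DEX. All transgenic DEX arrays lay below the transgenic mock arrays, and the difference was -1.39 ± 0.13 and -1.72 ± 0.13. AT3G01060 read 8.28, 8.33 and 8.09 in Col mock, 7.68, 7.70 and 7.69 in Col DEX, 6.69, 6.50 and 6.84 in 35S:LOB-GR mock, and 6.21, 6.40 and 6.72 in 35S:LOB-GR DEX. Its Col DEX arrays agreed within 0.02 of one another and lay below all Col mock arrays, with genotype differences of -1.56 ± 0.12 and -1.25 ± 0.12.

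AT5G57340 and AT5G57345 follow each other in the gene order of chromosome 5 and were the only neighbouring pair among the 51 named members that could be placed. AT5G57340 gave 6.75, 6.94 and 6.68 in Col mock and 6.76, 6.29 and 6.35 in Col DEX, then 5.41, 5.55 and 5.32 in 35S:LOB-GR mock and 5.13, 4.72 and 5.03 in 35S:LOB-GR DEX. AT5G57345 gave 9.70, 9.33 and 9.54 in Col mock and 9.43, 9.42 and 9.31 in Col DEX, then 8.23, 7.79 and 7.97 in 35S:LOB-GR mock and 7.86, 8.66 and 8.19 in 35S:LOB-GR DEX. With DEX the 35S:LOB-GR mean of AT5G57340 moved by -0.47 and that of AT5G57345 by 0.24. Their genotype differences were -1.36 ± 0.13 and -1.53 ± 0.16 under mock, and -1.51 ± 0.13 and -1.15 ± 0.16 under DEX. The other 8 genes without a role lay between -1.35 and -0.80 under mock.

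Around the named members, 100 flanking genes had a probe set with 1 gene, and 7 of them (7.0%) were called lower under mock and 12 (12%) under DEX, beside 5.1% and 9.74% of all probe sets. Under both treatments 7 of the 100 were called lower, beside 3.32% of all probe sets, and no test was made of this. The median differences of the flanking genes were -0.01 and 0.01. By chromosome, 17 named members were on chromosome 1, 6 on 2, 12 on 3, 4 on 4 and 13 on 5. These are 32.7%, 11.5%, 23.1%, 7.69% and 25%, where the shares of all named probe sets were 25.5%, 16.3%, 20.3%, 14.5% and 22.3%. The 98 members without a single gene name have no position here.

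The lowest differences of the set belong to probe sets without a gene name here. Probe set 258239_at read 11.50, 11.40 and 11.40 in Col mock and 10.71, 11.19 and 11.17 in Col DEX. It read 5.85, 6.20 and 6.49 in 35S:LOB-GR mock and 6.09, 5.53 and 5.51 in 35S:LOB-GR DEX. It is a bright signal in wild type that sat near the median of all probe sets in the transgenic seedlings, with differences of -5.25 ± 0.18 and -5.31 ± 0.18. Probe set 248910_at came next, with 8.83, 8.90 and 9.00 in Col mock, 8.18, 8.47 and 8.33 in Col DEX, 4.39, 4.55 and 4.78 in 35S:LOB-GR mock, and 4.24, 3.88 and 4.41 in 35S:LOB-GR DEX. Its differences were -4.34 ± 0.13 and -4.15 ± 0.13.

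At the edge of the rule, with no test, AT4G29520 (-0.80 under mock, -1.14 under DEX), AT1G66760 (-0.82, -1.44) and AT3G05640 (-0.82, -1.11) were the named genes just inside. Just outside were AT2G25200 (-0.80 after rounding and just short of the limit, -0.94), AT2G46550 (-0.79, -0.98) and AT1G70420 (-0.99, -0.79). The limit thus separates genes whose values differ by less than their SE.

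DEX in wild type is the comparison that the rule did not use, although the Col arrays themselves entered it. None of the 150 members was called between Col DEX and Col mock by limma, where 13 of all probe sets were (0.0572%). At an unadjusted p under 0.05, 36 members (24.0%) passed, 15 higher and 21 lower with DEX, beside 12.7% of all probe sets. In 42 members the Col DEX arrays lay wholly above (19) or wholly below (23) the Col mock arrays, a share of 28.0% beside 21.0% of all probe sets. The members' responses in Col had a median of 0.01 and an SD of 0.27, where those of all probe sets had a median of 0.01 and an SD of 0.17. They ran from -0.66 to 0.87, and 136 members (90.7%) were within 0.5, as were 98.5% of all probe sets. The members were brighter than most probe sets, with a median Col mock level of 8.09 against 5.94. A comparison with probe sets of like level was not made, so these shares do not show a response particular to the set.

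Among the named members the Col responses ran from -0.62 to 0.46, and 49 of 52 were within 0.5. The 3 beyond it were CYP71B26, with -0.62 ± 0.14 (limma adjusted p = 0.0966), AT5G35970, with -0.59 ± 0.15 (adjusted p = 0.129), and AT3G01060, with -0.54 ± 0.12 (adjusted p = 0.0966). In CYP71B26 and AT3G01060 every Col DEX array was below every Col mock array. The largest positive response, that of AT1G26800, was 0.46 ± 0.16 (adjusted p = 0.235). A p that misses the threshold does not show that these genes ignored DEX, and AT3G01060, AT4G16870, AT5G35970 and CYP71B26 were among 12 members (8.0%) called when the arrays were weighted by quality, beside 1.75% of all probe sets. With only the 6 Col arrays in the fit, 12 members were called, beside 1.79% of all, AT3G01060 and CYP71B26 among the named ones.

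The responses of the transgenic line were bounded by the rule and ran from -0.50 to 0.49 with a median of -0.10. Of the members 14 were called for DEX against mock in 35S:LOB-GR, 4 higher and 10 lower, beside 9.97% of all probe sets, and nothing is read from that count. Across the 150 members the Col and 35S:LOB-GR responses correlated at 0.04 (Pearson, a description across probe sets, which share the same arrays), where all probe sets gave 0.11. The arrays of DEX and mock did not overlap in either genotype, and moved in opposite directions, in 3 members, none of them named, beside 1.8% of all probe sets. Among the genes shown in full, AT5G35970 had means that moved by -0.59 in Col and 0.27 in 35S:LOB-GR, with overlap in both genotypes. AT1G26800 moved by 0.46 in Col, without overlap, and by -0.38 in 35S:LOB-GR, with overlap. AT4G14270 moved by 0.29 and 0.32, and AT5G57340 by -0.33 and -0.47.

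**Figure D5:**
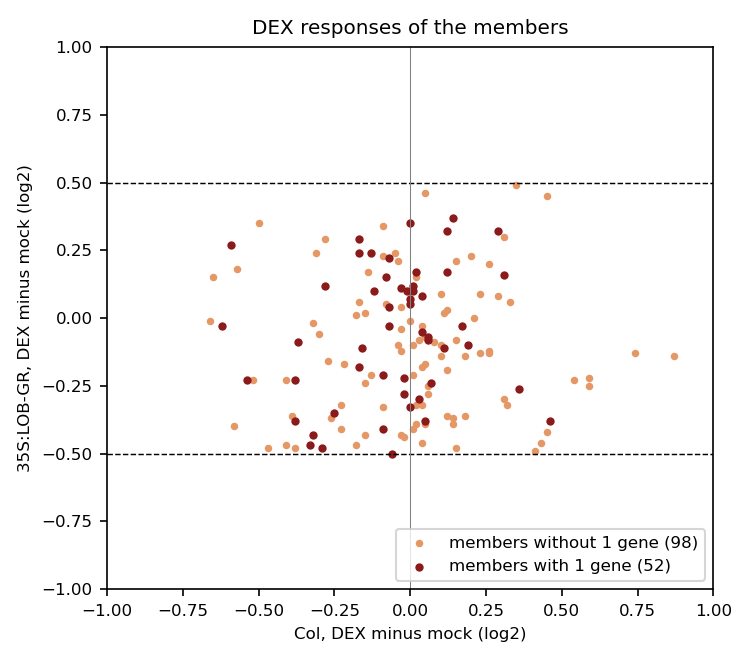
DEX minus mock in log2 units in Col (x axis) and in 35S:LOB-GR (y axis) for the 150 members; each point is 1 probe set, dark red for the 52 named ones. The dashed lines at -0.5 and 0.5 are the limits of the rule on the 35S:LOB-GR response. Along the x axis, which the rule did not bound directly, the points run from -0.66 to 0.87.

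The members' median SD between arrays was higher in the transgenic line than in wild type. The median SD of 3 arrays was 0.13 in Col mock and 0.12 in Col DEX for the members, with 0.10 for all probe sets in both groups. In 35S:LOB-GR it was 0.22 under mock and 0.20 under DEX, with 0.11 and 0.13 for all. Single arrays shifted many members at once: in 35S:LOB-GR mock replicate 3, 120 of 150 lay above their group mean, by a median of 0.16, while 53 did in replicate 2, with a median of -0.09. In 35S:LOB-GR DEX, replicate 1 had 96 above (median 0.12) and replicate 3 had 46 (median -0.09). In Col DEX, replicate 2 had 100 above (median 0.05) and replicate 1 had 50 (median -0.06), while Col mock had 70 to 80 in each array. All probe sets showed median deviations of 0.01 or less in size in each of these arrays. With each array left out in turn the rule found 141 to 170 members. The genotype differences of the 52 named members then stayed negative, which the lack of overlap in the rule made certain.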

How the data were processed

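The deposited values are log2 signals that the authors produced with RMA (no version given), per the submitters' processing notes. RMA sets all arrays to a common distribution, which reduces a shift shared by most transcripts. The number of arrays limits the precision. Of 22810 probe sets, 64 Affymetrix controls were left out. All columns of per-sample values were used. Gene names come from the platform annotation and a RefSeq gene table (TAIR10.1): 13513 probe sets had 1 gene (13436 matched), 503 several and 8730 none.

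The 4 group means of the 12 arrays were estimated by limma 3.58.1 (R 4.3.3) without a replicate block, with eBayes, two-sided tests and Benjamini-Hochberg adjustment. The fit was tested on simulated data. The members and gene lists were chosen with earlier results of these data known. Array values are given for the 20 named members of lowest mean genotype difference and those in a gene list. Those of 2 unnamed probe sets, the role groups and the relatives were added after values were seen. Most listed genes had no named probe set: the lists of morning clock, jasmonate, phosphate, nitrate, epidermis and vascular genes had none. The lists of evening clock, photoperiod, shade, glucosinolate and iron genes had 1 each. Of these, GI differed by -2.65 and -2.80 (mock, DEX), AT1G69570 by -0.77 and -0.86, IAA29 by -1.49 and -2.12, BCAT4 by -0.04 and -0.54, and BHLH101 by -0.27 and 0.18. Promoter and protein sequences were not analysed here. Alternatives were other normalizations, a filter on dim probe sets, other limits and spread estimates, a replicate block and arrays left out in turn.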

Additional observations from a re-analysis of the deposited data

How the results depend on the processing

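The rule found 150 members on the deposited values, 156 after centring each array on its median (148 shared) and 160 after quantile normalization (149 shared). Leaving out 1 array at a time gave 141 to 170, the highest without 35S:LOB-GR mock replicate 3. A limit of -1.0 in place of -0.8 gave 97 and a response limit of 0.3 gave 101. Without dim probe sets 149 remained, and asking for no overlap over both treatments together, an alternative chosen after seeing the data, also gave 149. The 104 genotype differences of the named members were all negative under the 14 alternatives tried (the normalizations and arrays left out), the weakest at -0.58. With an array left out the sign was fixed by the lack of overlap in the rule, and the members were chosen for negative differences, so nothing is read from the signs. For DEX against mock in Col, limma called 0 members, and 0 with either normalization, without dim probe sets, with a trend or at an adjusted p under 0.01. It called 12 with array weights (1.75% of all probe sets) and 12 with only the 6 Col arrays (1.79%); the cause was not tested. Leaving out 1 array gave 0 to 4: 3 without Col mock replicate 3 (AT5G35970 the named one; 0.303% of all), 1 without 35S:LOB-GR mock replicate 2 (0.0967%) and 4 without 35S:LOB-GR DEX replicate 1 (AT3G01060 the named one; 0.62%). With the replicate number as a block, 0 members and 8 of all probe sets were called, against 13 without it. The deviations of same-numbered arrays correlated at r of -0.228 to 0.13, and of 0.034 to 0.094 between Col mock and Col DEX, so the numbers were not taken to pair the samples. Some 35S:LOB-GR arrays of unlike number reached higher r, 0.337 for mock replicate 1 with DEX replicate 2 and 0.302 for mock replicate 3 with DEX replicate 1. Others went the other way, as low as -0.267 for mock replicate 3 with DEX replicate 2. Whether any of these arrays belong together was not tested.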
